A study of Mus musculus with 8 samples.

Results

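Integrin subunits were followed in differentiating C2C12 cells, a mouse myoblast line that leaves the cell cycle and fuses into myotubes when serum is lowered. The 9 genes, chosen by symbol, were the alpha subunits Itga1, Itga3, Itga4, Itga5, Itga6, Itga7 and Itgav and the beta subunits Itgb1 and Itgb5. They take up 9 of the 23420 gene lines of the count table, and all 9 passed the filter on low counts. Cells that overexpressed AUF1 were set beside WT cells, both in total RNA and in the heavy polysome fraction, the mRNAs that carry many ribosomes. The groups were AUF1 total, WT total, AUF1 polysome and WT polysome, with 2 libraries each and 8 in all. Every culture had been grown in 10% fetal bovine serum and then held for 48 h in DMEM with 2% horse serum. The polysome libraries are those titled High with cytoplasmic RNA as their molecule, a reading the labels do not spell out. The vector, whether WT cells carried an empty one, and whether AUF1 cells were a pool or a clone are not stated by these sources, so AUF1 itself and other differences between the lines cannot be told apart. Nothing says that replicates came from separate cultures, so the p-values rest on a spread that may be purely technical.

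An integrin is a pair of 1 alpha and 1 beta chain that spans the plasma membrane and ties the extracellular matrix to the actin cytoskeleton. Most alpha chains here pair with the beta chain of Itgb1, and the alpha chain decides the ligand: laminin for Itga3, Itga6 and Itga7, collagen for Itga1, fibronectin for Itga5, and VCAM1 or fibronectin for Itga4. The chain of Itgav pairs with several beta chains, among them that of Itgb5, and binds vitronectin and other proteins with an RGD motif. In muscle, the Itga7 and Itgb1 pair is the main laminin-binding integrin of myotubes and fibers, and Itga5 and Itga6 are known from myoblasts. AUF1, the product of Hnrnpd, recognises AU-rich elements of 3' untranslated regions (UTRs) and is known to change the stability or translation of such mRNAs.

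Because AUF1 binds AU-rich RNA, the 3' UTRs of the members were read for ATTTA, for the longer TATTTAT that contains it, and for TTATTTATT that contains both, on the sense strand of the longest coding transcript in GENCODE M21 (mm10). All 9 members held ATTTA, as did 69.7% of the 11914 tested coding genes with a transcript. TATTTAT was found in 7 of 9 members and 30.4% of those genes, and TTATTTATT in 1 of 9 members and 8.31%. The 3' UTRs differed widely in length, from 428 bases in Itga7 to 6994 in Itga1, around a median of 1161 over the same genes, and longer UTRs hold more letters in which a motif can occur. Itga1, with 18 copies of ATTTA, and Itgb5, with 1 copy, had no TATTTAT. Windows of 25 bases are shown for Itga6, Itga7, Itga3 and Itga4, which hold TATTTAT and whose levels are described closely below. Itgb1 is shown as the one member with TTATTTATT. Itga1, also described closely below, has no TATTTAT, and none of its ATTTA windows is shown. Capitals mark the longest of the motifs at that place, and a match is a description of the letters only.
Itga6, base 795 of 927: tgtatatgaTATTTATttttttctt
Itga7, base 407 of 428: ggttttgtcTATTTATtaaaaagta
Itga3, base 227 of 1321: cttccttccTATTTATcataaatta
Itga4, base 1524 of 6508: tttttgtagTATTTATttcatatat
Itgb1, base 1075 of 1112: aactgaagTTATTTATTaaaataaa

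The base number is the motif's first base, counted from the start of the 3' UTR. In mm10, Itga6 lies on chromosome 2 at 71745616 to 71858416 (plus strand), Itga7 on chromosome 10 at 128933818 to 128958282 (plus strand), and Itga3 on chromosome 11 at 95044474 to 95076801 (minus strand). Itga4 lies on chromosome 2 at 79255426 to 79333123 (plus strand), Itga1 on chromosome 13 at 114953096 to 115101964 (minus strand), and Itgb1 on chromosome 8 at 128685654 to 128733200 (plus strand).

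Libraries held 25281224 to 34917660 counts in genes, and levels are given as counts per 1000000 (CPM) of the TMM-scaled library size. Hnrnpd, the check of the labels, had 448.3 and 396.8 CPM in AUF1 total libraries against 64.2 and 99.6 CPM in WT total libraries, and 549.1 and 427.2 CPM in AUF1 polysome libraries against 106.5 and 130.7 CPM in WT polysome libraries. Of the 8 skeletal muscle markers all had counts, led by Actc1, and they summed to 16200 to 17400 CPM in AUF1 total RNA, 3200 to 3450 CPM in WT total RNA, 12400 to 16200 CPM on AUF1 polysomes and 2730 to 3300 CPM on WT polysomes. The 8 fibroblast markers, led by Mfap5, summed to 14.3 to 26.1 CPM in AUF1 total RNA, 72.7 to 417 CPM in WT total RNA, 15.2 to 25.8 CPM on AUF1 polysomes and 81.3 to 396 CPM on WT polysomes. The 7 smooth muscle and pericyte markers, led by Pdgfrb, overlapped between the genotypes, at 515 to 1210 CPM in AUF1 total RNA against 614 to 1310 CPM in WT total RNA. Endothelial, immune and Schwann cell markers summed to at most 5.47 CPM in any library, and of 5 adipocyte markers Plin1 and Lep were at 0 throughout. In bulk RNA, a change in the share of cells and a change in RNA per cell cannot be told apart, and the part of these marker differences in the integrin values was not tested.

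Most integrin members differed more between the replicate numbers than between the genotypes. Over the 4 groups, 7 of 9 members were higher in replicate 1 than in replicate 2 in every group, as were 26% of all tested genes. Itgb5, whose chain pairs with that of Itgav, had 642.5 CPM in replicate 1 against 79.5 CPM in replicate 2 of AUF1 total RNA, and 999 against 102.2 CPM in WT total RNA. Its mean log2 difference between the numbers lay at the 98.4 percentile of all tested genes, that of Itgb1 at the 96 percentile and that of Itga5 at the 93.7 percentile. Cav1, Slc3a2, Cd47 and Adam9, genes of surface proteins that associate with integrins, were also higher in replicate 1 in every group. Genes of membrane and secreted proteins were not compared as a set, so these percentiles do not set integrins apart from them. Itga4 was the one member with the opposite sign in total RNA, with replicate 1 minus replicate 2 at -1.12 in AUF1 and -0.85 in WT on the log2 scale, and Itga1 differed in sign only on AUF1 polysomes, at -0.36. Over the 12356 tested genes with one place in the annotation, the difference between the numbers had a Spearman rho of 0.365 with the GC content of the transcript and of -0.062 with its length, and the part of these properties was not tested. Genotype changes are therefore given within each replicate number, and the edgeR fit is given with and without the replicate number as an additive block. The block takes the same shift between the numbers in every group. Itga3 shifted by 2.52 and 1.8 in AUF1 and WT total RNA but by 1.16 and 0.895 on polysomes. Itga7 shifted by 2.51 and 1.68 in total RNA but by 0.824 and 0.69 on polysomes, and Itga4 by 0.802 and 0.103 on polysomes, opposite in sign to total RNA. For these members the block fits poorly.

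**Figure D1:**
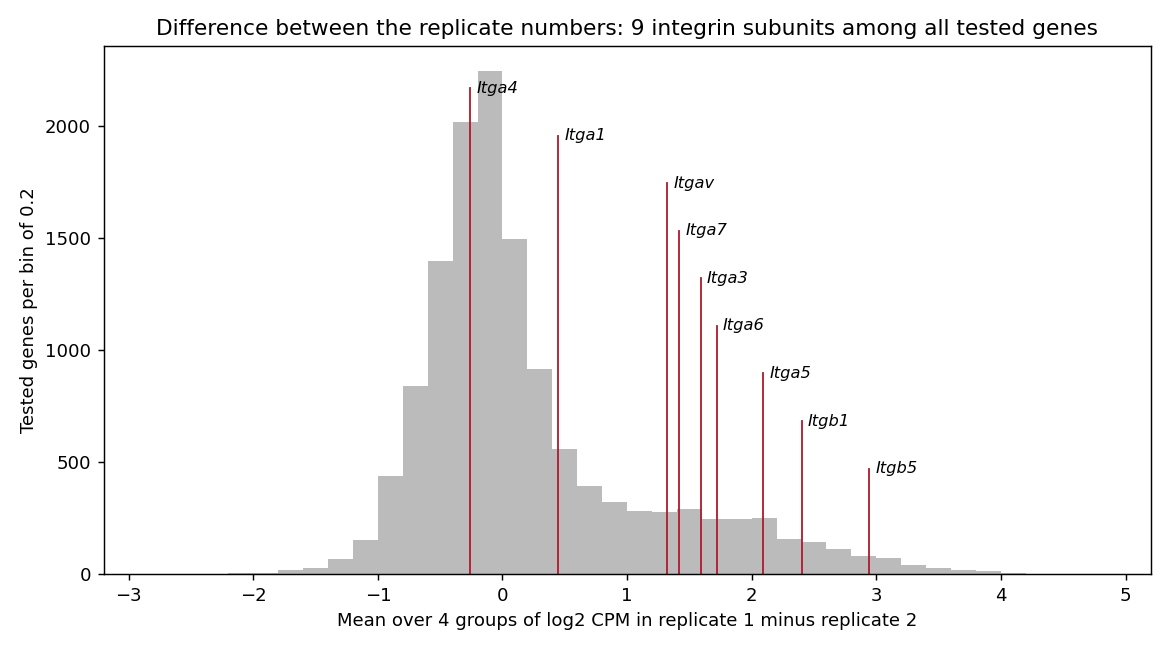
The grey histogram counts all 13167 tested genes by their log2 CPM in replicate 1 minus replicate 2, averaged over the 4 groups, and the red lines mark the 9 integrin members. Itgb5, Itgb1 and Itga5 sit in the right tail, at or above the 93.7 percentile, while Itga4 sits left of 0.

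Per kilobase of transcript, Itga7 was the most or second most abundant of the 9 members in every library, at 59.8 to 620.9 CPM per kilobase over the 8 libraries. Itgb5 ranked 1 to 3, Itga5 ranked 2 to 4 and Itgb1 ranked 3 to 4, and Itga7 stood above Itga5 and Itgb1, and Itgb5 above Itgb1, in all 8 libraries. Itga7 and Itgb5, Itga5 and Itgb5, and Itga5 and Itgb1 changed places between libraries, so the order within each of these pairs was not separated from the spread. Itga3 was the fifth in all 8 libraries, at 6.9 to 61.8 CPM per kilobase. Itga6 and Itgav held ranks 6 and 7, with Itga6 the higher in all 4 AUF1 libraries and Itgav the higher in all 4 WT libraries. Itga4 was the eighth and Itga1 the ninth in all 8, at 0.257 to 1.36 and 0.0135 to 0.306 CPM per kilobase. With the union of all exons as length, Itga7 ranked 1 to 4 and Itga5 ranked 1 to 4, so that of these orders the one of Itgb5 above Itgb1 held in all 8, while Itga3, Itga4 and Itga1 kept their ranks. Itga6 was then above Itgav in replicate 1 of the AUF1 libraries but below it in replicate 2, at 1.89 against 2.03 CPM per kilobase in total RNA and 1.81 against 2.28 on polysomes.

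**Figure D2:**
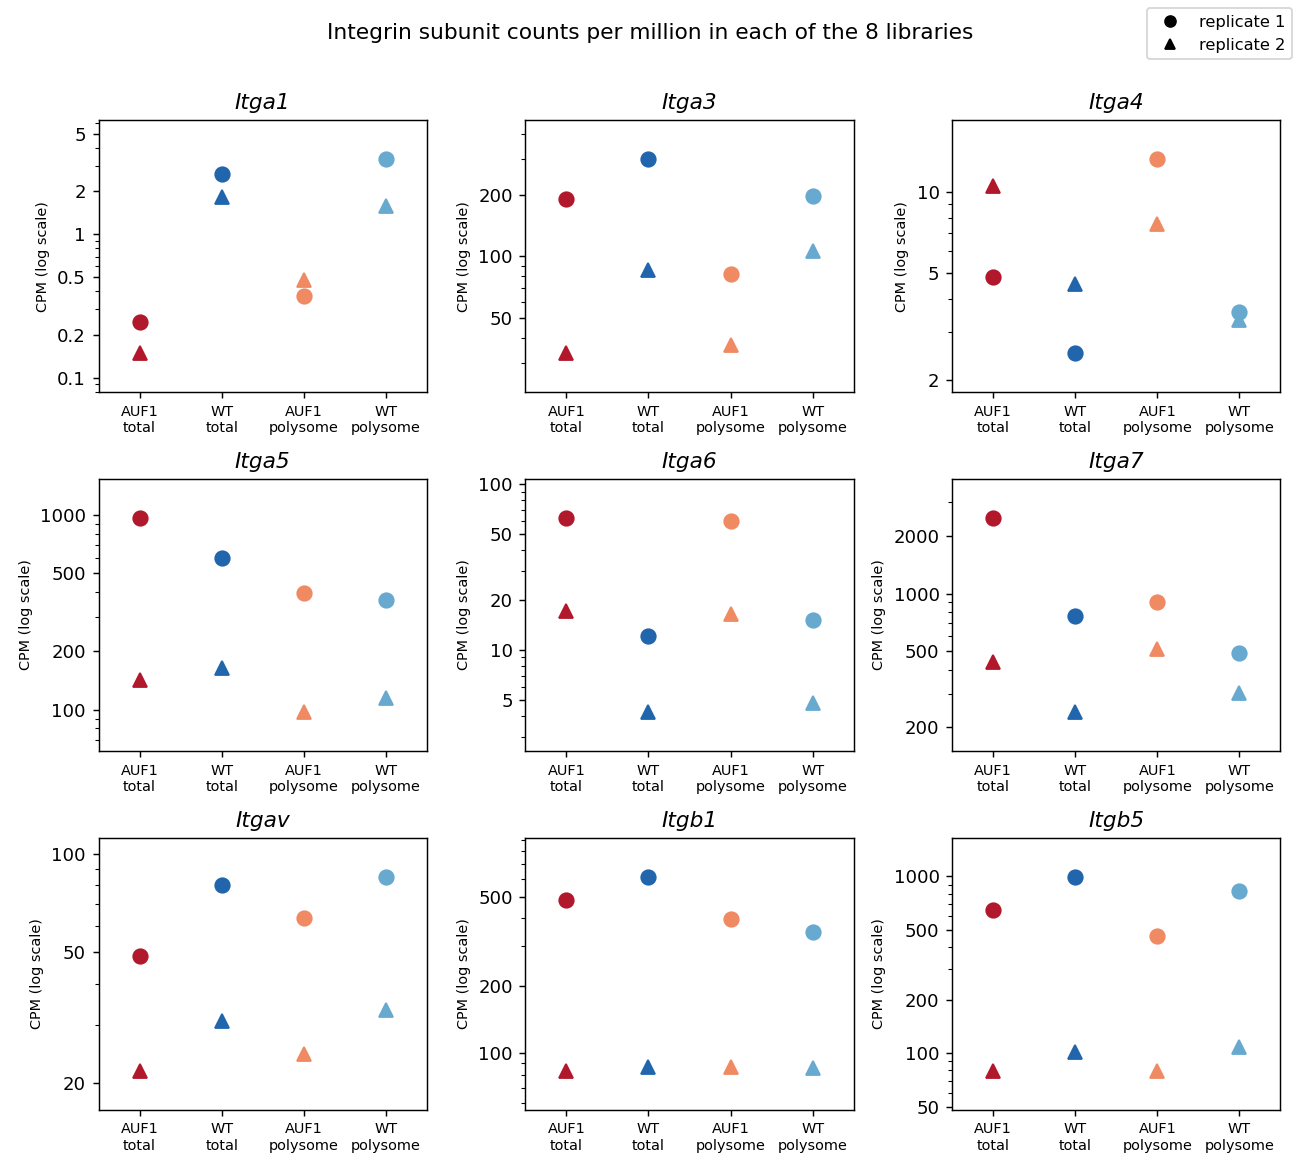
Each panel gives the CPM of one integrin subunit on a log axis in the AUF1 total, WT total, AUF1 polysome and WT polysome groups, with a circle for replicate 1 and a triangle for replicate 2. For Itga1, Itga4 and Itga6 both AUF1 points lie beyond both WT points in total RNA and on polysomes, and for Itgb1 and Itgb5 the circles lie far above the triangles in every group. How many of all tested genes separate by genotype in this way was not counted.

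In total RNA the laminin-binding alpha chains lay on both sides of WT: Itga6 and Itga7 were higher and Itga3 lower in AUF1 within each replicate number. Itga6 had 62.6 and 17.1 CPM in the AUF1 libraries (replicates 1 and 2) against 12.1 and 4.21 CPM in the WT libraries. The AUF1 libraries were 5.17-fold and 4.05-fold higher than the WT library of the same number, and the groups did not overlap. Its log2 fold change was 2.29 ± 1.02 (SE) with an edgeR adjusted p of 0.401, and 2.20 ± 0.25 with an adjusted p of 0.000763 once the replicate number was a block. Here and below, the share of all tested genes whose groups do not overlap was not counted. With 2 libraries against 2, an exact two-sided permutation test cannot go below a p of 0.333. Itga7, which pairs with Itgb1 as a laminin receptor of muscle fibers, had 2496 and 438.4 CPM in AUF1 against 767.3 and 240.3 CPM in WT. It was 3.25-fold and 1.82-fold higher within the numbers, but the groups overlapped, and the log2 fold change was 1.54 ± 0.90 with an adjusted p of 0.543, and 1.38 ± 0.40 with an adjusted p of 0.0517 with the block. Itga3, the laminin receptor chain best known from epithelia, had 192 and 33.5 CPM in AUF1 against 300.5 and 86.0 CPM in WT. Both AUF1 values were below the WT value of their number, by 0.65 and 1.36 on the log2 scale, and neither fit called it (adjusted p of 0.826 without and 0.121 with the block).

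Itga1, a collagen receptor chain, was the lowest of the members and the one with the largest fold. It had 7 and 4 counts in AUF1 total libraries, with exact 95% Poisson intervals of 2.81 to 14.4 and 1.09 to 10.2 counts that cover counting error only, against 65 and 52 counts in WT total libraries. As CPM these were 0.245 and 0.148 in AUF1 against 2.63 and 1.83 in WT, so the AUF1 values were 10.7-fold and 12.3-fold below those of WT with the same number. The log2 fold change was -3.47 ± 0.61 with an edgeR adjusted p of 0.0662, and -3.48 ± 0.53 with an adjusted p of 0.00311 with the block. Both AUF1 total libraries were under the CPM of 0.361 that the filter asks for, so Itga1 was tested because of the other 3 groups.

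Among the receptors of fibronectin, vitronectin and VCAM1, Itga4 was the member higher in AUF1 within both numbers. It had 4.83 and 10.5 CPM in AUF1 total libraries against 2.51 and 4.53 CPM in WT total libraries, 1.93-fold and 2.32-fold higher within the numbers, and the closest AUF1 and WT values nearly touched. Neither fit called it in total RNA, with an adjusted p of 0.432 without and 0.147 with the block. Itga5, the main fibronectin receptor chain, had 966.8 and 141.5 CPM in AUF1 against 597.4 and 163.3 CPM in WT, so the sign differed between the numbers. Itgav had 48.8 and 21.8 CPM in AUF1 against 80.2 and 30.9 CPM in WT, lower within both numbers by 0.72 and 0.51 on the log2 scale, with an adjusted p of 0.107 with the block.

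In total RNA both beta chains were lower in AUF1 within both numbers. Itgb1 had 485 and 83.1 CPM in AUF1 total libraries against 615.3 and 86.3 CPM in WT total libraries, a log2 fold change of -0.21 ± 0.25 with the block. Itgb5 was lower by 0.64 and 0.36 on the log2 scale, and its fold change with the block was -0.51 ± 0.24 with an adjusted p of 0.199. Neither fit called either beta chain. Without the block the log2 fold changes were -0.30 ± 1.29 for Itgb1 and -0.61 ± 1.55 for Itgb5, a spread too wide to show that a difference is small.

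Over the 9 members in total RNA, edgeR without the block called 0, against 1.02% of all 13167 tested genes, and DESeq2 called 1, Itga1. At an unadjusted p under 0.05 the edgeR fit without the block held 1 member, Itga1, and 1807 of all genes. The fit with the block held 6 members and 3639 of all genes at that unadjusted p. By adjusted p, 2 of 9 members were called with the block, Itga6 higher and Itga1 lower, against 13.1% of all genes, of which 6.99% were higher and 6.15% lower. The members' median log2 fold change was -0.30 and that of all tested genes 0.0024, both without the block, and 4 of the 9 values were above 0. Here and on polysomes, the fits that leave out 1 library called widely differing numbers of all genes, given in the closing section. The members' calls in those fits are therefore descriptions only. Itga6 and Itga1 were called in 8 of 8 fits with the block that left out 1 library, while Itga7, Itga3 and Itga4, not called with all libraries, were called in 5, 3 and 3 of the 8.

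**Figure D3:**
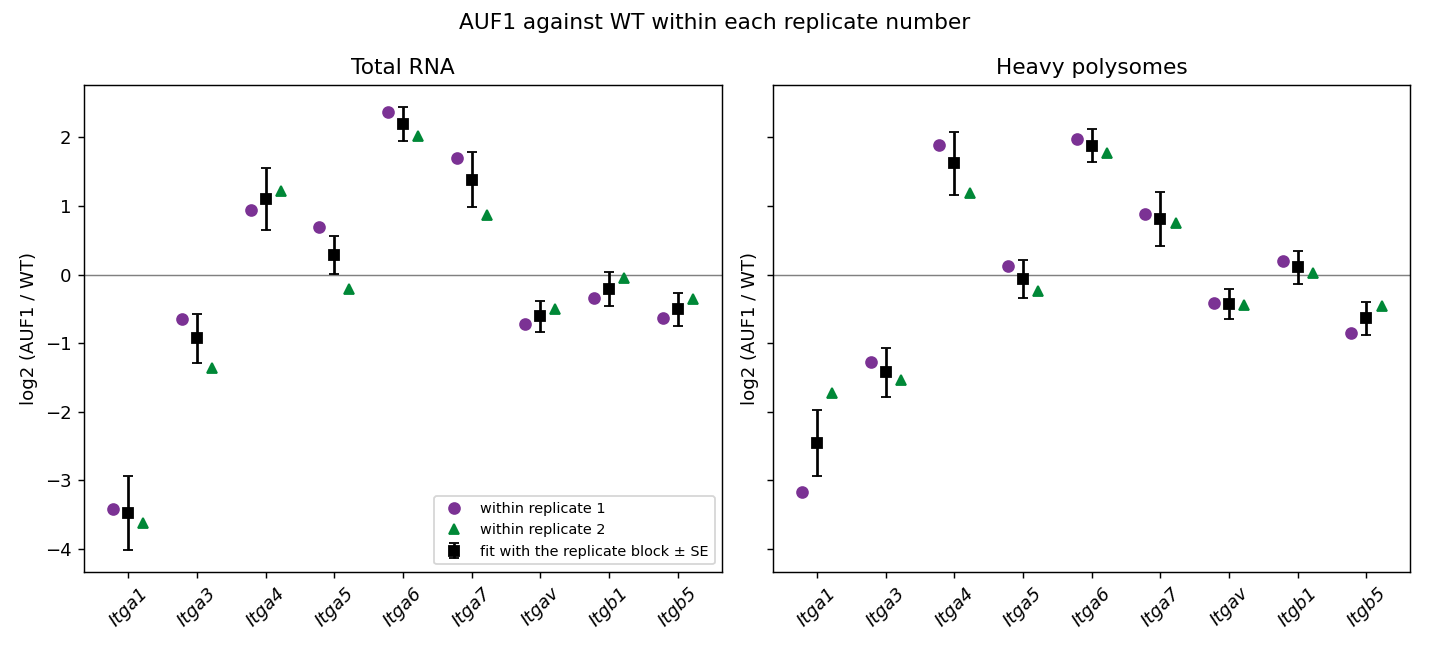
Log2 of AUF1 over WT for the 9 integrin members in total RNA (left) and on heavy polysomes (right), within replicate 1 (circles), within replicate 2 (triangles) and from the edgeR fit with the replicate block (squares with SE bars). Itga6 lies between 1.78 and 2.37 and Itga1 between -3.62 and -1.73 in all 4 within-number values, Itga5 lies on both sides of 0 in each panel, and Itgb1 between -0.34 and 0.20.

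On heavy polysomes the same question was asked of the mRNAs that carry many ribosomes. Itga6 had 59.6 and 16.3 CPM in AUF1 polysome libraries against 15.1 and 4.76 CPM in WT polysome libraries, with no overlap. Its log2 fold change was 1.93 ± 1.00 with an edgeR adjusted p of 0.471, and 1.88 ± 0.24 with an adjusted p of 0.00146 with the block. Itga4 had 13.2 and 7.59 CPM in AUF1 against 3.58 and 3.33 CPM in WT, both AUF1 libraries being above both WT libraries, and its log2 fold change with the block was 1.62 ± 0.45 (adjusted p of 0.256 without and 0.0454 with the block). Itga3 had 82.2 and 36.8 CPM in AUF1 against 198.3 and 106.7 CPM in WT. These groups did not overlap either, and the log2 fold change with the block was -1.43 ± 0.36 (adjusted p of 0.642 without and 0.0294 with the block). Itga1 had 12 and 13 counts in AUF1 against 118 and 50 in WT, or 0.373 and 0.479 CPM in AUF1 against 3.35 and 1.59 CPM in WT, and the groups did not overlap. With the block it fell by 2.46 ± 0.48 on the log2 scale with an adjusted p of 0.0102, and without it the adjusted p was 0.117.

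Itga7 had 906.3 and 512.1 CPM in AUF1 polysome libraries against 490.4 and 304.1 CPM in WT polysome libraries. Both AUF1 values were above both WT values, with log2 changes of 0.89 and 0.75 within the numbers, and neither fit called it (adjusted p of 0.807 without and 0.221 with the block). Of the RGD receptor chains, Itgav was lower within both numbers, by 0.42 and 0.45 on the log2 scale, and Itga5 differed by 0.13 and -0.24. Among the beta chains, Itgb1 had 396.9 and 86.9 CPM in AUF1 against 346 and 85.4 CPM in WT. Itgb5 had 459.1 and 79.6 CPM in AUF1 against 826.5 and 109.1 CPM in WT, lower by 0.85 and 0.45 on the log2 scale within the numbers, with an adjusted p of 0.114 with the block.

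Over the 9 polysome values edgeR without the block called 0 of 9 members, against 0.349% of all tested genes, and DESeq2 called 1, Itga1. Without the block the edgeR unadjusted p was under 0.05 for 2 members, Itga1 and Itga4, and for 1862 of all genes. With the block it was under 0.05 for 5 members and 3705 of all genes. By adjusted p, 4 of 9 members were called with the block, Itga4 and Itga6 higher and Itga1 and Itga3 lower, against 13.0% of all genes, 6.70% higher and 6.33% lower. Leaving out 1 library ended some of these calls: Itga6 was called in 8 of 8 such fits with the block, Itga1 in 6, Itga3 in 5 and Itga4 in 4, and of the members not called with all libraries Itga7 was called in 3 and Itgb5 in 1. Itga1 lost its call without replicate 1 of AUF1 or of WT polysomes (adjusted p of 0.153 and 0.0591). Itga3 lost it without AUF1 polysome replicate 1 (0.201), WT polysome replicate 2 (0.136) or WT total replicate 2 (0.0531). Itga4 lost it without AUF1 polysome replicate 1 (0.445), WT polysome replicate 2 (0.0684), or WT total replicate 1 or 2 (0.0913 and 0.0664).

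The composition of the alpha subunit mRNAs, each level taken per kilobase and divided by the sum over the 7 alpha subunits of the same library, differed little between the replicate numbers of total RNA for the abundant subunits Itga7, Itga5 and Itga3. Itga7 made up 68.8% and 69.7% of the sum in AUF1 total libraries against 47.3% and 49.5% in WT total libraries. Itga3 made up 4.37% and 4.41% in AUF1 against 15.3% and 14.7% in WT. Itga6 made up 1.61% and 2.53% in AUF1 against 0.696% and 0.81% in WT. In these 3 cases the AUF1 and WT total libraries did not overlap. Nor did they for Itga5, Itgav and Itga1, while those of Itga4 did overlap. For Itga7 and Itga3 the replicates of a group were much closer to each other than to the other genotype. Itga5 made up 24.4% and 20.7% in AUF1 total libraries against 33.8% and 30.9% in WT total libraries. The shares are parts of one sum, so a larger share of Itga7 lowers the others.

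On polysomes Itga7 made up 63.1% and 77.1% of the alpha sum in AUF1 against 46.5% and 58.2% in WT. Itga3 made up 4.73% and 4.59% in AUF1 against 15.6% and 16.9% in WT, and Itga6 made up 3.87% and 2.29% in AUF1 against 1.34% and 0.849% in WT. For each of these 3 genes the AUF1 and WT libraries again did not overlap, nor did they for Itgav, Itga1 and Itga4. Itga5 did overlap on polysomes, with 25.4% and 13.4% in AUF1 against 31.7% and 20.1% in WT. The ratio of Itga6 to Itga3 per kilobase was 0.368 and 0.574 in AUF1 total libraries against 0.0455 and 0.0553 in WT total libraries, and 0.817 and 0.5 in AUF1 polysome libraries against 0.0859 and 0.0503 in WT polysome libraries. Of the laminin receptor chains other than Itga7, Itga3 was thus the more abundant in every library, by a smaller margin in AUF1. The shares and ratios are given without a test, since an exact two-sided permutation test of single values cannot go below a p of 0.333 with 2 libraries against 2. With the union of exons as length the share of Itga7 was 56.1% and 58% in AUF1 total libraries against 34.1% and 36.4% in WT total libraries, and Itga5 then exceeded Itga7 in both WT total libraries.

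**Figure D4:**
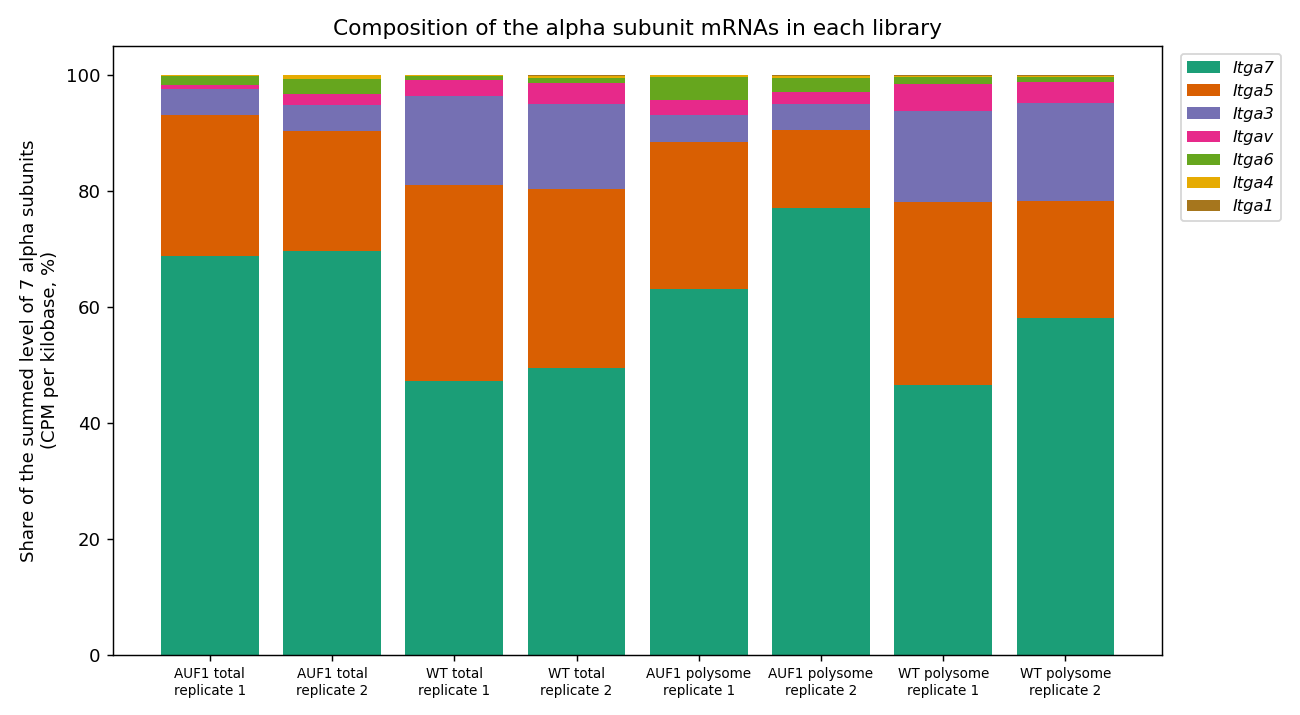
Stacked bars give the share of each of the 7 alpha subunit mRNAs in their summed level (CPM per kilobase, in %) in each of the 8 libraries, with AUF1 left of WT for total and polysome RNA. In total RNA Itga7 takes 68.8% and 69.7% in AUF1 against 47.3% and 49.5% in WT, and the band of Itga3 is narrower in AUF1.

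The interaction asked whether the AUF1 change on polysomes differed from that in total RNA. No member was called: edgeR gave 0 of 9 without and 0 of 9 with the block, DESeq2 gave 0, and all adjusted p were 1, against 0% of all tested genes in both edgeR fits. None of the 9 had an unadjusted p under 0.05, where all genes held 16 without and 49 with the block. The differences within the numbers were 0.26 and 1.90 for Itga1, -0.39 and -0.24 for Itga6, -0.82 and -0.12 for Itga7, and 0.94 and -0.03 for Itga4 on the log2 scale. For Itga1 the value rests on few counts, and for Itga4 the sign differed between the numbers. An adjusted p of 1 does not show that polysome loading was the same in both genotypes.

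Polysome against total RNA within a genotype gave the loading of each mRNA relative to the others. In AUF1 cells 0 of 9 members were called by edgeR without the block and 0 with it, against 0% and 0.0152% of all tested genes, and DESeq2 called 0 members. Without the block 0 members and 438 of all genes had an unadjusted p under 0.05, and with it 1 member, Itga5, and 1604 of all genes. Itga5 had 398 and 97.1 CPM on AUF1 polysomes against 966.8 and 141.5 CPM in AUF1 total RNA, lower by 1.28 and 0.54 on the log2 scale within the numbers, with a fold change of -0.95 ± 0.28 and an adjusted p of 0.351. With all libraries the fit with the block also placed Itga7 and Itga3 lower on polysomes, at -0.69 ± 0.40 and -0.61 ± 0.36, and called neither. Without AUF1 total replicate 2 it placed Itga5, Itga7 and Itga3 lower as well. That fit has 1 library left in the AUF1 total group, so only the direction is given. Itga7 differed by -1.46 and 0.22 and Itga3 by -1.22 and 0.13 within the numbers, so their signs were opposite in the replicate 2 libraries.

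In WT cells 0 of 9 members were called without the block and 0 with it, against 0% and 0.0152% of all tested genes, and DESeq2 called 0 members. None of the members had an unadjusted p under 0.05 in either fit, against 364 of all genes without and 1056 with the block. Itga5 had 364.3 and 114.5 CPM on WT polysomes against 597.4 and 163.3 CPM in WT total RNA, lower by 0.71 and 0.51 on the log2 scale, with a fold change of -0.60 ± 0.28 and an adjusted p of 0.636 with the block. Itga7 and Itga3 again had opposite signs in the numbers, at -0.65 and 0.34 and at -0.60 and 0.31. These 2 comparisons and the genotype comparisons use the same libraries.

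Other parts of the adhesion machinery were read from 7 lists of genes. Calls made here without the block ended with RLE scaling and when any 1 library was left out, where 0 of all genes passed in the genotype comparisons. The counts without the block stand beside 1.02% of all tested genes in total RNA and 0.349% on polysomes. The counts with the block that follow stand beside 13.1% of all tested genes in total RNA (6.99% higher and 6.15% lower) and 13.0% on polysomes, and several of these are near the shares with the block. Of the 17 other integrin subunits 12 were tested, and in total RNA 0 were called without the block, and 0 higher and 2 lower with it. These were Itga10 and Itga11, collagen receptor chains like Itga1. Itga10 had 3.54 and 2.07 CPM in AUF1 total libraries against 23.5 and 11.4 CPM in WT total libraries, and Itga11 had 8.86 and 5.03 CPM in AUF1 against 64.8 and 18.8 CPM in WT. Neither gene overlapped between the genotypes, and their adjusted p with the block were 0.000765 and 0.00914, against 0.0917 and 0.202 without it. The median log2 fold change of this list was -0.28 in total RNA, beside 0.0024 over all tested genes. On polysomes Itga10 and Itga11 were again lower with the block, and Itgal, a leukocyte subunit, was higher at very low levels, with 0.715 and 0.332 CPM in AUF1 polysome libraries against 0.0284 and 0.0317 CPM in WT polysome libraries. Both WT polysome values were under the CPM of 0.361 that the filter asks for, so Itgal was tested because of other libraries. In total RNA Itgal had 0.455 and 0.407 CPM in AUF1 against 0.365 and 0.351 CPM in WT. Neither fit called Itgal there (edgeR adjusted p of 0.922 without and 0.822 with the block).

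Of 17 laminin chains and basement membrane genes, 16 were tested, and in total RNA 2 were higher and 1 lower without the block, and 2 higher and 3 lower with it. Lamc3, a laminin gamma chain, had 9.21 and 10.3 CPM in AUF1 against 1.09 and 0.878 CPM in WT, with a log2 fold change of 3.31 ± 0.45 and an edgeR adjusted p of 0.0413. Lama1, the alpha chain of embryonic laminin, had a log2 fold change of -2.62 ± 0.40 (edgeR adjusted p of 0.0473), with low levels of 0.701 and 0.481 CPM in AUF1 against 4.01 and 3.3 CPM in WT. Lama4, an alpha chain of vessel and muscle basement membranes, had 2 and 1.81 CPM in AUF1 against 28.7 and 14 CPM in WT, with an adjusted p of 0.0523 without and 0.00152 with the block. In total RNA the replicate numbers of Lamc3 and Lama1 lay closer together than those of most integrin members. On polysomes Lama1 was the one gene of the list called without the block, and the same 2 higher and 3 lower genes passed with it.

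Among 15 ligands with RGD motifs or for VCAM1 and collagen receptors, 14 were tested, and 0 were called without the block in either RNA. With it 1 was higher and 4 lower in total RNA. The higher one was Npnt, nephronectin, with 137 and 40.8 CPM in AUF1 total libraries against 51.6 and 17.6 CPM in WT total libraries and a block adjusted p of 0.0064. The lower ones were Thbs1, Vcam1, Col1a2 and Postn, of which Vcam1 encodes a ligand of the Itga4 chain. The median of this list was -0.59 in total RNA and -0.64 on polysomes on the log2 scale, beside 0.0024 and 0.0023 over all tested genes. On polysomes Col1a1 took the place of Vcam1 among 4 lower genes.

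Inside the cell, 22 integrin activators and adaptors were tested, with 1 higher and 0 lower without the block, in both RNAs. That gene was Itgb1bp2, melusin, a muscle protein that binds the cytoplasmic tail of the Itgb1 chain. It had 181.4 and 181.1 CPM in AUF1 total libraries against 19 and 23 CPM in WT total libraries, a log2 fold change of 3.11 ± 0.37 with an edgeR adjusted p of 0.0399, and on polysomes 123.8 and 189.5 CPM in AUF1 against 13.7 and 22.2 CPM in WT. While Itgb1 itself was not called, its muscle partner was thus several times higher in AUF1 within each replicate number, in both RNAs. With the block Flnc, a muscle filamin, was also higher in total RNA (adjusted p of 0.023). Of 17 adhesion kinases and GTPase signalling genes, 0 were called without the block in either RNA, and Fyn, a Src family kinase, was higher with it (0.90 ± 0.28 in total RNA, adjusted p of 0.0255). Of 14 tested surface proteins that associate with integrins, 0 were called without the block and 1 with it, Cav1, the caveolin of membrane caveolae, at 130 and 104 CPM in AUF1 against 665 and 258 CPM in WT in total RNA. Of 9 tested trafficking genes 0 were called in either fit. For all 7 lists edgeR called 0 genes in polysome against total RNA, with or without the block.

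Across the 8 libraries, the genes whose log2 CPM followed a member most closely were found by Pearson r among the 9662 tested genes whose mean log2 CPM reached 3. All points share the same libraries, the split by number and the genotypes, so these values are descriptions. Itga6 was followed by Tmem182 (r of 0.994) and Jsrp1 (r of 0.989), and Dhdds had an r of 0.989 with Itga7. The nearest to Itga3 was Kctd10 (r of 0.999), to Itga5 Srebf1 (r of 0.998), to Itgb1 Serpinf1 (r of 0.996), and to Itgb5 Tspan4 (r of 0.999). Those of Itgav, Itga4 and Itga1 were Emp1, Zfp568 and H2afy2 (r of 0.997, 0.991 and 0.974). Among the members themselves, Itgb1 and Itgb5 had an r of 0.976 and Itgav and Itgb5 one of 0.955, while Itga1 and Itga4 had an r of -0.798.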

How the data were processed

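Per the labels' protocols, RNA was cleaned on Qiagen columns and 500 ng went into NEBNext libraries. Per the submitters' processing notes, the build was mm10 and the tools included STAR, Bowtie, SAMtools, Trimmomatic and cutadapt. Not given in the sources used here are the tool versions, counting program, strand setting and annotation. The authors deposited raw counts for each gene symbol. The 5 summary lines (6.04% to 7.23% of counts outside genes, 0.254% to 0.389% ambiguous) were left out. Counts are per gene, so splice forms of Itga6, Itga7 and Itgb1 were not separated.

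Genes were filtered with filterByExpr (13167 kept), scaled by TMM and fitted in edgeR 4.0.16 (R 4.3.3, limma 3.58.1) by the quasi-likelihood method, with 1 coefficient per group over all 8 libraries. Tests were two-sided, with Benjamini-Hochberg adjustment across every tested gene of each of 5 comparisons and calls at 0.05. Alternatives were RLE scaling, no filter, DESeq2 1.42.0, the replicate number as a block, and leaving out each library with and without the block. Residual degrees of freedom were 4, and 3 with the block. The median SE of a genotype log2 fold change was 0.427, and 0.281 with the block. Counting error is small beside this for all members except Itga1. The titles number replicates 1 and 2, while the library descriptions call every replicate 2 library Rep3, and the title numbers are used here. No label ties a number to a culture or day. The number was therefore left out of the planned model and entered as a block in an alternative. Same-numbered libraries deviated together from their group means (r of 0.62 to 0.81).

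CPM come from these counts, and levels per length use the longest coding GENCODE M21 transcript. A prior count of 2 entered the log2 CPM behind the correlations and the comparison of the numbers over all tested genes. The members' within-number changes are differences of log2 CPM without a prior count. The members, gene lists, marker lists and alternatives were chosen with earlier results of these data known. Named genes are all members, Hnrnpd, up to 4 genes of each list with the smallest p in total RNA and up to 2 genes with the highest r per member. Itgal, Postn and Col1a1 were named after their values were seen, as parts of small counts. Some genes that this rule names are not reported here.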

Additional observations from a re-analysis of the deposited data

Results flagged for a closer look

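For 2 members every replicate number of one setting moved one way and every number of the other setting the opposite way, on the log2 scale within the numbers. Itgb1 was lower in AUF1 than in WT in total RNA, by values of -0.3431 and -0.05348, and higher in AUF1 on polysomes, by 0.1979 and 0.02488. The difference was tested as the interaction of genotype and RNA, which gave an edgeR adjusted p of 1 with and without the block. Itga6 was lower on polysomes than in total RNA in AUF1 cells, by values of -0.07133 and -0.06349, and higher on polysomes in WT cells, by 0.3195 and 0.1759, and the same interaction test again gave an adjusted p of 1.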

How the results depend on the processing

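With the replicate block the members called were 2 in total RNA and 4 on polysomes instead of 0 and 0, and 1730 and 1716 of all genes were called instead of 134 and 46. The deviations of same-numbered libraries from their group means correlated at a Pearson r of 0.62 to 0.81 over 13167 genes in the 6 pairs of groups. DESeq2 called 1 member in each genotype comparison, with 885 and 856 of all genes, and 29 and 26 genes in polysome against total RNA in WT and AUF1. Scaling by RLE called 0 of all genes in both genotype comparisons, and no filter called 166 and 94. RLE and no filter kept all 45 fold changes of members (9 genes in 5 comparisons) in sign and call, and the block turned the sign of Itga5 on polysomes (-0.069) and of Itga4 in polysome against total RNA in WT (0.0074). Leaving out 1 library without the block left 0 members and 0 genes called. With the block such fits called 2 to 5 members in total RNA, 1 to 6 on polysomes, and 0 to 3 in polysome against total RNA in AUF1. Over all genes these fits called 329 (no WT total replicate 1) to 2975 (no AUF1 total replicate 2) in total RNA, and 592 (no AUF1 polysome replicate 1) to 3011 (no AUF1 total replicate 1) on polysomes. They called up to 11 genes in the interaction, and up to 70 in WT and 1133 in AUF1 in polysome against total RNA. Leaving out 1 library without the block sets 1 replicate number against both, so signs turned most in the genes that differ between the numbers; the ranges that follow take in the fits with and without the block. For AUF1 over WT in total RNA the log2 ranges were Itga3 -2.57 to 0.25, Itga5 -1.47 to 1.62, Itga7 -0.24 to 2.47, Itgav -1.39 to 0.066, Itgb1 -2.11 to 1.58 and Itgb5 -2.83 to 1.68, while Itga1, Itga4 and Itga6 kept the sign. For AUF1 over WT on polysomes the log2 ranges were Itga5 -1.30 to 1.11, Itgav -1.28 to 0.40, Itgb1 -1.31 to 1.50 and Itgb5 -2.55 to 1.30, while Itga1, Itga3, Itga4, Itga6 and Itga7 kept the sign. For the interaction the log2 ranges were Itga3 -1.66 to 1.16, Itga4 -0.31 to 1.20, Itga5 -1.84 to 1.48, Itga6 -1.57 to 0.87, Itga7 -1.70 to 1.02, Itgav -0.62 to 1.05, Itgb1 -1.45 to 2.25 and Itgb5 -2.50 to 2.01, while Itga1 kept the sign. For polysome over total RNA in WT the log2 ranges were Itga1 -0.49 to 0.58, Itga3 -0.98 to 0.83, Itga4 -0.38 to 0.46, Itga5 -1.73 to 0.54, Itga6 -0.77 to 1.23, Itga7 -0.95 to 0.73, Itgav -0.73 to 0.93, Itgb1 -2.04 to 1.31 and Itgb5 -2.33 to 2.17. For polysome over total RNA in AUF1 the log2 ranges were Itga3 -1.69 to 0.84, Itga4 -0.25 to 1.29, Itga5 -2.51 to 0.83, Itga6 -1.29 to 1.17, Itga7 -1.82 to 0.70, Itgav -0.53 to 1.03, Itgb1 -1.71 to 1.56 and Itgb5 -2.18 to 1.78, while Itga1 kept the sign. A lone library was taken to vary like the other groups. With 2 libraries a group that differ between the numbers, members were called by edgeR only where the number was modelled, and Itga1 rests on 4 to 13 counts in AUF1 libraries.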
